A study of Mus musculus with 6 samples.

Results

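Among the CD45+ cells sorted from mouse kidneys, 10038 of 23538 barcodes that passed the quality limits read as macrophages by their C1q transcripts, held almost no Malat1, and held 0 or 1 unique molecular identifier (UMI, 1 captured transcript) of Hmox1. They are called Malat1-poor macrophage barcodes here. They were chosen by transcript counts: at least 1000 gene UMIs and 200 genes, mitochondrially encoded genes at up to 15% of UMIs, Malat1 below 0.1% of UMIs, at least 3 UMIs of C1qa, C1qb and C1qc together, S100a8 and S100a9 together below 1%, and no UMI of Cd3e or Cd79a. They were described beside 5865 Malat1-rich macrophages, which passed the same limits but had Malat1 at 0.3% or more, and beside free RNA, the transcripts in barcodes with 100 or fewer UMIs. Because the rule reads these counts, differences in transcripts between the classes are given as a description, without tests. Tests concern rhabdomyolysis against control, and the antibody tags, which the rule does not read.

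All mice were C57BL/6J at 8 weeks of age. Kidneys were digested, and live cells carrying CD45, a surface protein found on leukocytes, were sorted and sequenced in droplets from the 3' end. There were 3 libraries of control animals and 3 of animals whose kidneys were acutely injured by rhabdomyolysis, in which skeletal muscle breaks down and releases myoglobin. No transgene or drug is named in the labels, which leave out how the injury was made and how long before harvest. Whether each library came from its own animal is not stated, so a p-value here speaks of variation among libraries that could be technical. Levels are given as CPM, a gene's UMIs per 1000000 gene UMIs of all barcodes of a class in a library.

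Malat1 is a long noncoding RNA that stays in the nucleus, and Neat1 is another one, the scaffold of nuclear bodies called paraspeckles. Most intact cells hold many copies of Malat1, so a droplet with a cell's cytoplasmic transcripts and no Malat1 lacks a usual part of the nuclear RNA. Kidney macrophages take up debris, break down hemoglobin and store its iron, present peptides on MHC class II, and send chemokines that draw other leukocytes. Immediate early genes such as Fos, Jun and Egr1 are switched on within minutes of a stimulus, tissue digestion included, and their transcripts are short-lived.

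Malat1 split the macrophage barcodes into separate groups in each library. Among barcodes that met every limit other than Malat1, 2571, 2383 and 2734 in control libraries 1 to 3 and 1673, 2566 and 4150 in rhabdomyolysis libraries 1 to 3, only 0.598 to 2.05% had Malat1 between 0.1 and 0.3%. Of the 10038 Malat1-poor macrophage barcodes, 9156 had no Malat1 UMI, 296 had some below 0.05%, and 586 lay just inside the limit at 0.05 to 0.1%. Just outside it, 71 barcodes had 0.1 to 0.15%. On the other limits, 9278 members had no Hmox1 UMI and 760 had 1, against 134 excluded barcodes with 2 and 216 with more. 83 members had exactly 3 C1q UMIs, and 70 otherwise fitting barcodes had 2.

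**Figure D1:**
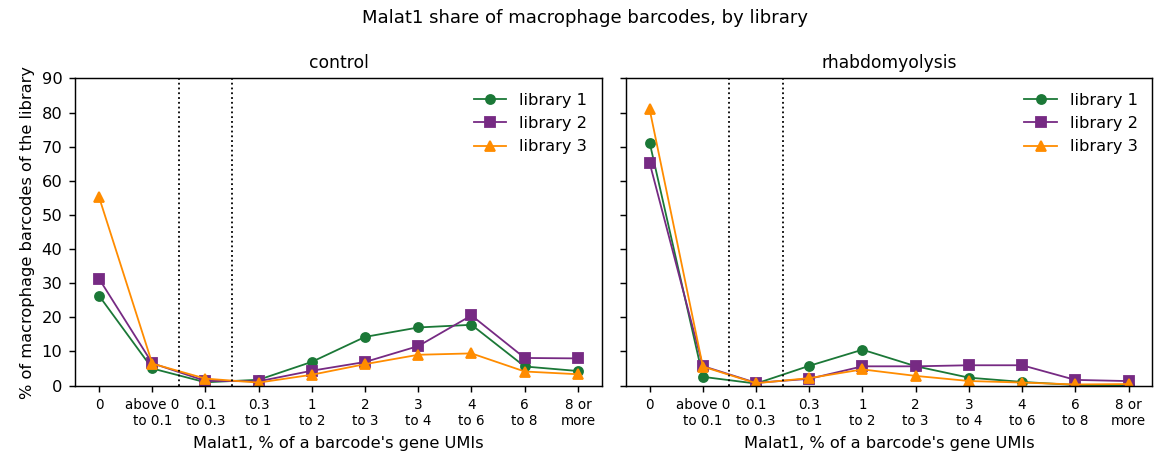
Share of macrophage barcodes (y axis, % of those meeting all limits other than Malat1) in each range of Malat1 (x axis, % of a barcode's gene UMIs, ranges of unequal width), with 1 line per library. Dotted lines mark 0.1% and 0.3%. In each of the 6 libraries the range between them holds 2.05% or less, with more barcodes at exactly 0 than in any other range.

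The Malat1-poor class held 31.3, 37.9 and 61.7% of these barcodes in the control libraries and 73.8, 71.0 and 86.5% in the rhabdomyolysis libraries. The groups did not overlap, but control library 3 lay nearer to the rhabdomyolysis libraries than to the other controls. As Malat1 and Hmox1 set these shares, they were not tested. In numbers, the members were 806, 902 and 1686 barcodes in control and 1234, 1821 and 3589 in rhabdomyolysis, and the Malat1-rich macrophages 1740, 1448 and 992 against 429, 724 and 532. Malat1 summed over the members was 0.00223 to 0.0118% of UMIs, as the rule requires a low share. Its share of free RNA was 1.19, 0.996 and 0.776% in the control libraries and 0.407, 0.668 and 0.503% in the rhabdomyolysis libraries.

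The libraries held 10816727 to 22656666 gene UMIs. The members rested on 5722525 UMIs in control and 14068674 in rhabdomyolysis. Their median depth was 1508, 1433 and 1500 UMIs in control and 1517.5, 1635 and 1925 in rhabdomyolysis, against 3672 to 4205.5 and 4946 to 7760.5 in the Malat1-rich macrophages. Of the 10038 members, 64 have a barcode sequence that also passed the quality limits in another library. Rhabdomyolysis library 2 stood apart: without it, 3110 in place of 1734 genes passed the test between conditions in the members, and its metallothionein and Actb levels, given below, lay apart from those of the other rhabdomyolysis libraries.

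The members carried macrophage transcripts. Of 14 listed macrophage markers, 3 are in the rule. The other 11 summed to 24315, 21728 and 19702 CPM in control and 15358, 21179 and 10722 in rhabdomyolysis, which is 80.5 to 118% of the Malat1-rich level and 99.8 to 151% of free RNA. Apoe, given below, held most of the members' sum in each library. Gene by gene, 0 of the 11 were more than 2-fold above the Malat1-rich level in all 3 libraries of either condition. In each condition 1 was more than 2-fold below it, with median log2 ratios of -0.41 in control and -0.11 in rhabdomyolysis. Aif1, a calcium-binding actin-bundling protein of macrophages, stood at 1345, 1143 and 1227 CPM in control members against 673, 565 and 705 in Malat1-rich macrophages and 429, 427 and 553 in free RNA. In rhabdomyolysis Aif1 was 512, 293 and 624 against 280.1, 118 and 378 and 292, 158 and 339.5, so that in each of the 6 libraries the members were highest. Ccl12, a monocyte-attracting chemokine, was 182, 122 and 245 in control members and 638, 125 and 1267 in rhabdomyolysis members, and 183, 121 and 281 and 469, 97.2 and 1000.2 in Malat1-rich macrophages. In both classes rhabdomyolysis library 2 lay within or below the range of the controls. Csf1r, the receptor of the macrophage growth factor, was lower in the members, at 47.1 to 52.8% of the Malat1-rich level in control and 58.6 to 68.7% in rhabdomyolysis.

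Transcripts of T and NK cells were scarce in the members, and those of several other cell types stood below their free RNA level. The 10 T cell genes outside the rule summed to 2.92 to 3.14% of their free RNA level in control and 1.20 to 4.37% in rhabdomyolysis. The 8 NK cell genes stood at 1.13 to 1.78% of free RNA in control, and rhabdomyolysis libraries 1 and 2 had none of their UMIs in the members. Classical monocyte genes, such as Ly6c2 and Ccr2, reached 16.5 to 23.0% of free RNA in control and 5.42 to 11% in rhabdomyolysis. The 14 tubule genes reached 31.9 to 80.1% and 17.5 to 44.7%, and the 8 listed B cell genes outside the rule 24.1 to 32.7% and 11.3 to 27.9%. Against Malat1-rich macrophages the tubule sum was higher in control members, at 122 to 218%, and lower in rhabdomyolysis members, at 27.9 to 71.8%. The B cell sum in the members was 79.7 to 145% of that in Malat1-rich macrophages, and Ighm, the IgM heavy chain, stood near its free RNA level in control at 462, 422 and 396 against 480.1, 386 and 385. Igkc, the light chain, did not, at 10.2, 4.17 and 11.3 against 1159, 1402 and 815. The listed markers of plasmacytoid dendritic cells (109 to 142% of free RNA over the 6 libraries) and platelets (101 to 151%) were not below free RNA. Bst2, which macrophages also express, made up most of the first sum, while Siglech, a defining marker, stood at 1.46, 2.78 and 1.37 CPM in control members. Pf4 led the second.

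A readout outside the rule was the antibody tags that the deposited matrices also hold. F4/80, the surface protein made from Adgre1, marks macrophages. The median member had 65, 39 and 28 F4/80 tag UMIs in control and 14, 24 and 30 in rhabdomyolysis. Malat1-rich macrophages had 92, 61 and 46 and 30, 40.5 and 48. T-like barcodes, with Cd3e, no C1q and Malat1 at 0.3% or more, had 3 or fewer, and so had Malat1-poor barcodes with no C1q UMI. Over the 6 libraries the mean F4/80 count was lower in members than in Malat1-rich macrophages, with a mean log2 ratio of -0.89 ± 0.49 (SD, n = 6), lower in 6 of 6 (two-sided exact sign-flip permutation test, p = 0.03125, the smallest that 6 libraries allow, 0.0375 after Benjamini-Hochberg adjustment over 6 tags). The CD4, CD8a and P2X7R tags were lower in 6 of 6 libraries too, with mean log2 ratios of -0.51, -0.63 and -0.78 and the same exact p, and CD3 in 5 of 6 at -0.29 (exact p = 0.0625). Per 1000 gene UMIs, of which the members held fewer, the direction turned for each of these 5 tags, with F4/80 at 0.74 on the log2 scale. Free RNA barcodes held more of each of the 5 tags per 1000 gene UMIs than the members did. F4/80 stood at 73.3 to 236 in free RNA against 8.86 to 43.0 in the members. CD4 was 28.8 to 78.7 against 2.10 to 6.06, and CD8a 58.7 to 97.0 against 1.90 to 4.07. The part of this background in the members' tag counts was not tested. The F4/80 count rose with depth within the members. At 2500 UMIs or more, the median member had 111, 71 and 46 in control and 22, 37 and 41 in rhabdomyolysis. The control values at that depth were not below the Malat1-rich medians over all depths, and the rhabdomyolysis values were. The part of depth in the lower count was not tested. The CD3 tag had a median of 2 or 3 in the members of each library, against 4 to 11 in T-like barcodes and 3 to 6 in Malat1-rich macrophages. Its mean was 4.64, 4.02 and 4.03 in control members, against 17.5, 12.7 and 9.14 in T-like barcodes. In rhabdomyolysis the means were 4.84, 18.1 and 8.24 against 5.17, 11.3 and 10.9. The mean in members of rhabdomyolysis library 2 was thus above that of T-like barcodes and far above its own median.

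**Figure D2:**
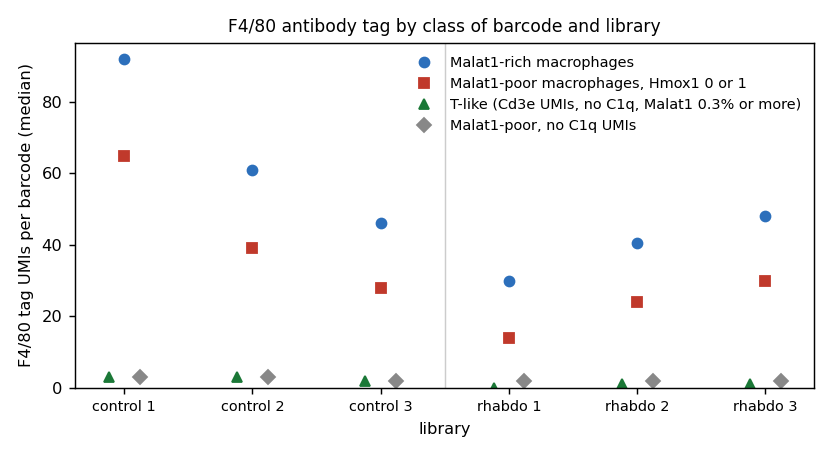
Median F4/80 tag UMIs per barcode (y axis, linear, from 0) in each library (x axis), for Malat1-rich macrophages (circles), Malat1-poor macrophage barcodes (squares), T-like barcodes (triangles) and Malat1-poor barcodes with no C1q UMI (diamonds). The squares lie at 14 to 65, below the circle of the same library and above the 3 or fewer of the other classes.

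Beside Malat1, another nuclear RNA, Neat1, and many immediate early transcripts lay far below the Malat1-rich level in the members. Neat1 stood at 2.92, 1.39 and 1.37 CPM in control members and 0.446, 1.70 and 0.482 in rhabdomyolysis members. Malat1-rich macrophages held 325, 274 and 292 and 213, 585 and 182, and free RNA 225, 149 and 152 and 122, 237 and 155. The members thus had 0.906 to 1.30% of the free RNA level in control and 0.311 to 0.719% in rhabdomyolysis. Kcnq1ot1, a noncoding RNA that acts in the nucleus, had 0, 0.695 and 0 CPM in control members against 115, 120.4 and 98.9 in Malat1-rich macrophages, and was found in 1 of 3 member libraries in either condition. The 13 listed nuclear-retained RNAs, of which 7 had no UMI in any member, summed to 2.48 to 3.35% of the Malat1-rich level over the 6 libraries. Neat1 held most of that Malat1-rich sum in each library. Only 2 of the 13 in control and 1 in rhabdomyolysis had enough counts to be compared gene by gene, so the sum does not speak for the whole list.

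Fos, a subunit of the AP-1 transcription factor, was at 10.9, 7.64 and 9.61 CPM in control members and 54.9, 39.5 and 43.3 in rhabdomyolysis members, against 1568, 1575 and 1820.3 and 2330.0, 3347 and 1709 in Malat1-rich macrophages. The classes did not overlap in either condition, nor did members and free RNA, where Fos was 674, 586 and 550.0 and 843, 987 and 559. Fosb, its close relative, had 1.46, 1.39 and 1.03 and 0, 0.284 and 0.120 in the members against 333, 295 and 332 and 118, 236 and 102 in Malat1-rich macrophages. Of its Malat1-rich level the members thus held at most 0.471%. Egr1, an early zinc finger factor, stood at 1.67 to 3.13% of the Malat1-rich level in control and 1.64 to 6.10% in rhabdomyolysis. Dusp1, a phosphatase that shuts down MAP kinases, was 14.6, 12.5 and 16.1 in control members against 490.1, 475 and 529.7, and 46.8, 117 and 37.2 against 1298, 1896 and 790.4 in rhabdomyolysis. Each of these genes was lower in the members in all 6 libraries.

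Counted over the list, 18 of 18 immediate early genes with enough counts were more than 2-fold lower in the members than in Malat1-rich macrophages in all 3 control libraries, with a median log2 ratio of -3.69, and 23 of 23 in all 3 rhabdomyolysis libraries, with -4.25. Over all genes with a mean of at least 20 CPM, 26.1% of 4330 in control and 16.1% of 4166 in rhabdomyolysis were lower by that criterion, with medians of -0.42 and -0.26. At all depths 0.139% and 0.072% were more than 2-fold higher, 6 and 3 genes. Among barcodes with 1000 to 2000 UMIs in both classes these were 277 and 92 genes, and those lower 1997 and 1118. With a mean of at least 50 CPM, 232 of 2111 genes, 11%, were lower in all 6 libraries and 0.0% higher. The 12 with the lowest median log2 ratios over the 6 libraries were Gm34455 (-7.44), Fosb (-7.02), Neat1 (-6.95), Fos (-6.70), Gm26740 (-6.39), Hspa1a (-6.24), Klf4 (-5.59), Gm26917 (-5.58), Rgs1 (-5.52), Egr1 (-5.29), Ogt (-5.14) and Tra2a (-5.02). Hspa1a encodes an inducible heat shock protein, Klf4 a transcription factor, Rgs1 a regulator of G protein signalling, Ogt the enzyme that adds N-acetylglucosamine to nuclear and cytoplasmic proteins, and Tra2a a splicing factor.

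The gap in immediate early genes was of like size in barcodes of like depth. Among barcodes with 1000 to 2000 UMIs in both classes, the summed list stood at 5.14 to 10.7% of the Malat1-rich level over the 6 libraries, and at 5.37 to 9.27% over all depths. The Malat1-rich class then rests on 118 to 216 barcodes in the control libraries and 21 to 46 in the rhabdomyolysis libraries. Within the members the share of UMIs from the list was also flat over depth, at 0.107 ± 0.0041% (SD, n = 3) in control barcodes with fewer than 1500 UMIs and 0.121 ± 0.0069% at 2500 or more. In rhabdomyolysis members it was 0.112 ± 0.0018% and 0.113 ± 0.012%. The list was low in nearly every member: its 95th percentile over the members of a library was 0.299 to 0.384% of UMIs, while the median Malat1-rich macrophage had 1.01 to 1.97%.

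Transcription factors of the myeloid lineage were lower as well, by less. Their 23 genes summed to 29.5 to 44.0% of the Malat1-rich level. Zeb2, a zinc finger factor of myeloid cells, stood at 54.7, 57.7 and 51.5 CPM in control members against 652, 707 and 566, and at 23.2, 29.3 and 29.5 against 231, 277 and 353 in rhabdomyolysis. Spi1, which encodes PU.1, was not lower in control members, at 665, 601 and 628 against 573, 494 and 546. Against free RNA, 7.55% of 3654 genes were more than 2-fold lower in the members in all 3 control libraries and 4.76% of 3531 in rhabdomyolysis. Of the immediate early genes 18 of 20 and 20 of 21 were. In the other direction 1.09% and 0.566% of all genes were higher than in free RNA.

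**Figure D3:**
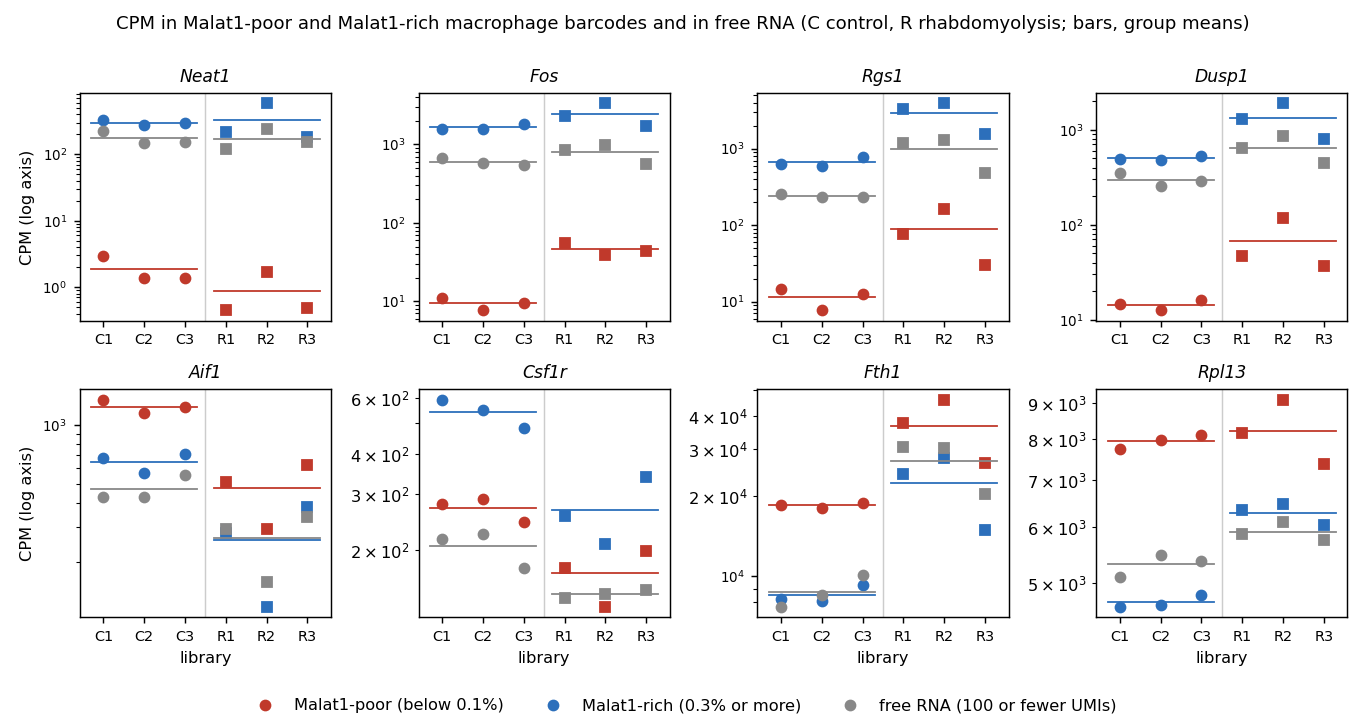
CPM (y axes, log scale, ranges differ between panels) of 8 genes in each library (x axes, C1 to C3 control, R1 to R3 rhabdomyolysis), in Malat1-poor macrophage barcodes, Malat1-rich macrophages and free RNA, with a bar at each group's mean, circles for control and squares for rhabdomyolysis. For Neat1, Fos, Rgs1 and Dusp1 the members lie below both other classes in each library, and for Aif1, Fth1 and Rpl13 above both.

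Compared with Malat1-rich macrophages, a larger share of the members' UMIs came from ribosomal proteins, ferritin, actin and the respiratory chain. The 78 cytosolic ribosomal protein genes took up 30.9, 32.9 and 33.8% of UMIs in control members and 29.6, 35.8 and 28.9% in rhabdomyolysis members, against 17.8 to 19.8% and 22.2 to 24.3% in Malat1-rich macrophages. Rpl13, a protein of the large subunit, stood at 7742, 7986 and 8098 CPM in control members against 4631, 4657 and 4812, and at 8165, 9102 and 7369 against 6355, 6467 and 6039 in rhabdomyolysis. Of these genes 1 of 78 was more than 2-fold higher in all control libraries and 0 in all rhabdomyolysis libraries, and the median log2 ratio was 0.78 and 0.42, against -0.42 and -0.26 over all genes. The 42 nuclear-encoded respiratory chain genes had medians of 0.71 and 0.44. Their sum was near free RNA, at 94.9 to 111% of it over the 6 libraries. Ribosomal proteins summed to 124 to 137% of free RNA in control and 103 to 116% in rhabdomyolysis. The actin cytoskeleton list summed to 124 to 153% of the Malat1-rich level and 116 to 152% of free RNA. Fth1, the ferritin heavy chain that stores iron, stood at 18585, 17969.7 and 18848 in control members against 8214, 8108 and 9248, and 37599, 46020.4 and 26537 against 24265, 27842 and 14922 in rhabdomyolysis. Ftl1, the light chain, stood at 207 to 232% of the Malat1-rich level in control and 141 to 181% in rhabdomyolysis. Both ferritin chains were higher in the members in each library. The heme and iron list as a whole was not: of 12 genes with enough counts, 2 were more than 2-fold higher and 2 lower in all control libraries. In all rhabdomyolysis libraries 0 of 12 were higher and 3 lower. The median log2 ratios of the list were -0.10 and -0.04.

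Summed over all depths, lysosomal and MHC class II genes lay closer to the Malat1-rich level than the myeloid transcription factors did. Cytokines and chemokines did so in control only. Lysosomal genes summed to 76.6 to 95.1% of the Malat1-rich level and 109 to 148% of free RNA. MHC class II genes summed to 54.6 to 79.4% of the Malat1-rich level. The cytokine and chemokine list summed to 54.1 to 82.8% in control and 21.0 to 34.4% in rhabdomyolysis. Among barcodes with 1000 to 2000 UMIs the members had 82.7 to 125% of the Malat1-rich level for lysosomal, 55.3 to 134% for MHC class II and 34.5 to 115% for cytokine and chemokine genes, so that the direction differed between libraries at like depth. Mitochondrially encoded genes, which the rule limits, were 17.8 to 39.3% of free RNA.

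**Figure D4:**
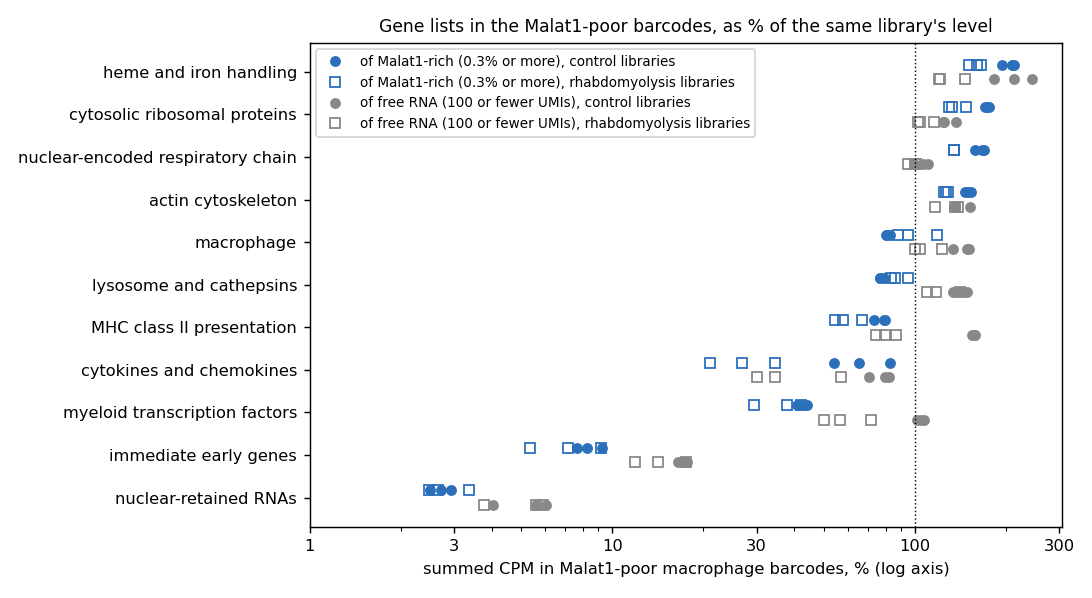
Summed CPM of 11 gene lists in Malat1-poor macrophage barcodes, as % of the same library's level (x axis, log scale) in Malat1-rich macrophages (blue) and in free RNA (grey). Filled circles are control and open squares rhabdomyolysis libraries, and the dotted line is 100%. The sums of nuclear-retained RNAs and of immediate early genes lie below 20% of both. Those of ribosomal, actin, and heme and iron genes lie above 100% of both in each library. Fth1 held most of the heme and iron sum in the members.

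A member held fewer different genes. Thinned to 1000 UMIs, the median was 432 ± 9.02 genes in control (SD, n = 3) and 471 ± 40.5 in rhabdomyolysis, against 535 ± 5.86 and 550 ± 13.6 in Malat1-rich macrophages. The members' difference between conditions was 38.3 genes (exact two-sided permutation test, p = 0.3, where 3 against 3 libraries cannot go below 0.1). Without thinning it was 103.5 genes (exact p = 0.1). Members varied in MHC class II content. In control library 1 it took up 6.97% of a member's UMIs at the median, 2.33% at the 5th and 14.8% at the 95th percentile. In rhabdomyolysis library 1 these were 0.704, 0.139 and 3.48%. The 95th percentile in each rhabdomyolysis library, 3.17 to 3.55%, was below the median in each control library, 6.97 to 7.87%. Across genes within a library, log levels of members correlated at 0.816 to 0.875 with those of Malat1-rich macrophages and at 0.850 to 0.888 with free RNA (Pearson's r over 4198 genes, which are not independent replicates and share a library, as a description).

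Rhabdomyolysis against control was tested in the members with the edgeR quasi-likelihood test on UMIs summed per library. Of 7547 genes, 909 were higher (12%) and 825 lower (10.9%) at an adjusted p under 0.05, with a median log2 change of 0.01 over all genes. In Malat1-rich macrophages 20.1% of 10617 genes were higher and 19.9% lower. The gene groups below are read against these shares. Leaving out 1 library changes the number called in the members to between 758 (without control library 2) and 3110 (without rhabdomyolysis library 2), with 1135 and 1820 without rhabdomyolysis libraries 1 and 3 and 939 and 842 without control libraries 1 and 3.

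MHC class II transcripts fell in the members. Of 14 tested genes of antigen presentation on MHC class II, 9 fell and 0 rose, with a median log2 change of -2.08, and 9 or 10 fell without any 1 library. H2-Eb1, a beta chain, went from 15694, 17149.7 and 18023 CPM in control to 857, 951 and 676 in rhabdomyolysis, a log2 change of -4.38 ± 0.27 (SE, edgeR adjusted p = 3.7e-05). The changes of H2-Aa and H2-Ab1 were -4.03 and -3.90, and that of Cd74, the invariant chain that fills the groove, was -3.17, from 33688, 36167 and 36913 to 4011, 4226 and 3952 (edgeR adjusted p = 5.3e-05, 2.5e-05 and 4.0e-05). Ciita, the factor that switches this group on, went from 33.5, 32.7 and 27.1 to 0, 0.568 and 0.241. The fall was of like size in shallow and deep members: the list took up 8.00 ± 0.494% of UMIs in control members with fewer than 1500 UMIs against 1.21 ± 0.104% in rhabdomyolysis, and 7.55 ± 0.355% against 1.01 ± 0.163% at 2500 or more. The list summed to 154 to 158% of free RNA in control members and 74.5 to 86.7% in rhabdomyolysis members. In free RNA itself the sum went from 46931, 51476 and 53391 to 14587, 14720 and 12058 CPM. The part of free RNA in the fall was not tested.

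Genes of resident kidney macrophages fell more often than they rose. Of 22 tested genes outside the rule, 9 fell and 3 rose, with a median of -0.53. Between 6 and 12 fell without any 1 library, and 1 rose without any 1 control library or rhabdomyolysis library 1. The examples from this list below are genes that fell, and Apoe, which had no call. The 3 that rose are not named. Ms4a7 and Ccl12 come from the macrophage markers and not from this list. Of 11 tested macrophage markers outside the rule, 5 fell and 1 rose. Adgre1, which encodes F4/80, went from 308, 311 and 261 to 82.1, 66.2 and 102 CPM, a change of -1.87 ± 0.16 (edgeR adjusted p = 0.00015). Ms4a7, a membrane protein of tissue macrophages, fell by 1.85 from 758, 626 and 562 to 210.5, 167 and 179.6 (edgeR adjusted p = 0.00023). Cx3cr1, the fractalkine receptor, fell by 2.17 from 176, 163 and 135 to 29.4, 8.52 and 74.4 (edgeR adjusted p = 0.015). That call was lost without any 1 of the control libraries or rhabdomyolysis library 1 (edgeR adjusted p up to 0.063). Csf1r fell by 0.74 (edgeR adjusted p = 0.0078, 0.06 without control library 2). Apoe, which carries lipids, was 18623, 16512 and 14668 against 11568, 18904 and 6171, with no call (edgeR adjusted p = 0.5), and Ccl12 had a change of 1.73 with overlapping groups (edgeR adjusted p = 0.062).

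Abundant genes whose higher group stood at least 2-fold above free RNA were also ranked by change, and the 12 largest falls included several genes outside these lists. Cxcl9, an interferon-induced chemokine, went from 147, 184 and 259.6 to 1.34, 0 and 1.69. Hpgd, which inactivates prostaglandins, went from 855, 1092 and 877 to 92.3, 42.6 and 134 with a change of -3.49 ± 0.31 (edgeR adjusted p = 0.0002). Selenop, the selenium carrier protein, fell by 2.75 from 1038, 1038 and 782 to 152, 175 and 101 (edgeR adjusted p = 0.00034). Aif1 fell by 1.46, and the chemokine Ccl6 fell by 1.15 from 326, 349.5 and 319 to 194, 122 and 149.7 (edgeR adjusted p = 0.0025). Adgre1 is given above. The others were Snx5, a sorting nexin of endosomes (-1.46), Tctex1d2 (-1.40), Clec4a2, an inhibitory lectin receptor (-1.40), Phf11b (-1.30), Itm2b, an integral membrane protein (-1.28), and Dbndd2 (-1.22). None of these 12 lost its call without any 1 library. Of the 12 largest rises by the same rule, 3 were the hemoglobin genes Hbb-bt, Hba-a1 and Hba-a2, taken up below. Pmepa1, a regulator of TGF-beta signalling, rose by 1.71 from 55.4, 53.5 and 47.4 to 210.1, 128 and 193 (edgeR adjusted p = 0.00042), and Rnase4, a secreted ribonuclease, by 1.51 from 80.2, 67.4 and 61.5 to 239, 156 and 224 (edgeR adjusted p = 0.00056). The others were Tuba1b, an alpha tubulin (1.40), Ybx3, a cold shock protein that binds RNA (1.10), Psmc4, a proteasome subunit (1.04), Hmgn2, which binds nucleosomes (0.98), Set, a histone chaperone (0.90), Pdap1 (0.84) and Lsm7, of the RNA decay and splicing rings (0.73). Without any 1 of the control libraries Ybx3, Pdap1 and Lsm7 lost their calls, and so did Set and Psmc4 without control library 1 or 2. Ybx3 and Lsm7 also lost theirs without rhabdomyolysis library 1. Pmepa1, Rnase4, Tuba1b and Hmgn2 kept theirs without any 1 library.

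Chemokines and cytokines moved in both directions. Of 21 tested, 8 rose and 4 fell, with a median of -0.24, and 6 to 9 rose without any 1 library. Ccl2, which draws monocytes through Ccr2, went from 15.3, 14.6 and 20.3 to 378, 134 and 909.6 CPM, a change of 4.65 ± 0.57 (edgeR adjusted p = 0.00071). Ccl7, a related ligand, went from 8.02, 4.17 and 5.49 to 95.4, 26.98 and 287, and Cxcl14 from 17.5, 8.34 and 9.61 to 147, 116 and 89.8 (edgeR adjusted p = 0.0036 and 0.00027). Pf4, platelet factor 4, rose by 1.91 from 276, 215 and 225 to 1291, 707 and 771 (edgeR adjusted p = 0.00086). Cxcl2, which draws neutrophils, had a change of 4.42, but in rhabdomyolysis members it stood at 144, 51.1 and 122 against 3609.8, 2672 and 2340.4 in free RNA. That is 1.91 to 5.21% of the free RNA level, next to 1.20 to 4.37% for the T cell genes in the same libraries. The part of free RNA in the Cxcl2 change was not tested. Ccl2 stood at 15.01 to 82.5% of free RNA in rhabdomyolysis members and Cxcl14 at 152 to 193%. The platelet marker sum, led by Pf4 in the members, stood at 101 to 132% of free RNA in rhabdomyolysis members. In free RNA that sum went from 188, 151 and 159 to 1296, 538 and 695 CPM. The part of free RNA in the Pf4 change was not tested. Cxcl3, a relative of Cxcl2, and Il1a, interleukin 1 alpha, had no UMI in control members and 115 and 56 UMIs in rhabdomyolysis members, at least 15.6-fold and 7.59-fold higher against the floor of 3 UMIs over the control group. Il1b, an inflammatory cytokine, was 252, 237 and 306 CPM in control members and 228, 66.7 and 281 CPM in rhabdomyolysis members, with no call (edgeR adjusted p = 0.29).

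Genes linked to repair and fibrosis rose together. Of 25 tested, 15 rose and 1 fell, with a median of 1.52, and 14 to 19 rose without any 1 library. Spp1, the matrix protein osteopontin, went from 46.7, 54.2 and 40.9 to 964, 414 and 590.1, a change of 3.74 ± 0.30 (edgeR adjusted p = 0.00011). Lgals1, galectin 1, rose by 2.24 from 122, 146 and 104 to 709, 459 and 654, and S100a10, a membrane-linked S100 protein, by 2.47 from 37.2, 67.4 and 32.96 to 303, 257 and 209 (edgeR adjusted p = 0.00015 and 0.00066). Igf1, a growth factor, was the one that fell, from 57.6, 43.1 and 28.2 to 3.12, 0.284 and 6.62 (edgeR adjusted p = 0.0023). Another 3 genes of the list had no UMI in control members and some in rhabdomyolysis members. Chil3, a chitinase-like protein, had 644 UMIs in rhabdomyolysis members, Timp1, an inhibitor of matrix proteases, 173, and Arg1, which splits arginine, 156. Against a floor of 3 UMIs over the control group they were at least 87.3-fold, 23.5-fold and 21.2-fold higher. Free RNA of the rhabdomyolysis libraries held more of most of these transcripts: Spp1 in the members stood at 43.3 to 52.2% of it, S100a10 at 31.5 to 44.5% and Lgals1 at 79.7 to 100.5%, so that the list summed to 38.4 to 41.6% of free RNA. Its part in the rise was not tested.

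Part of the oxidative stress genes rose. Of 26 tested Nrf2 and oxidative stress genes, 10 rose and 1 fell, with a median of 0.64, and 7 to 12 rose without any 1 library. The list summed to 122 to 140% of free RNA in control members and 91.3 to 102% in rhabdomyolysis members. In free RNA the sum went from 3266, 3441 and 3368 to 8572, 11965 and 7212 CPM. The part of free RNA in this rise was not tested. The metallothioneins, which bind metal ions, were highest in rhabdomyolysis library 2: Mt1 went from 343, 279 and 274 to 1315, 4718 and 764 (edgeR adjusted p = 0.01, and up to 0.062 without control library 2 or 3). Txn1, thioredoxin, rose by 0.98 from 314, 338 and 328 to 691, 525 and 799 (edgeR adjusted p = 0.0025). Among 19 tested heme and iron genes outside the rule, 2 rose and 3 fell, shares near those over all genes, with 1 to 6 falling without any 1 library (1 without control library 2, 6 without rhabdomyolysis library 2) and 1 to 4 rising (1 without control library 3, 4 without rhabdomyolysis library 3). Fth1 rose by 0.98 (edgeR adjusted p = 0.034), a call lost without any 1 control library or rhabdomyolysis library 1. Ftl1 did not pass (edgeR adjusted p = 0.67). Spic, the factor of iron-recycling macrophages, went from 5.10, 4.86 and 5.15 to 0.446, 0.568 and 0.482, and Slc40a1, the iron exporter ferroportin, from 9.48, 15.3 and 5.15 to 1.78, 2.27 and 1.20 (edgeR adjusted p = 0.00084 and 0.0073, the second 0.051 without control library 2).

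Glycolysis genes rose in part. Of 16 tested glycolysis genes 7 rose and 0 fell, with 6 or 7 rising without any 1 library. Gapdh went from 891, 784 and 766 to 2742, 1877 and 2975 and Pkm, pyruvate kinase, from 230.4, 227 and 220.4 to 847, 602 and 824, changes of 1.57 ± 0.17 and 1.69 ± 0.16 (edgeR adjusted p = 0.00042 and 0.00022). Of 42 respiratory chain genes 21 rose (and 2 fell without rhabdomyolysis library 2), but 5, 10, 11 and 12 rose without control library 2, control library 1, control library 3 and rhabdomyolysis library 1. Of the 13 mitochondrially encoded genes, which the rule limits, 7 fell, with 0 falling without control library 1 and 12 without rhabdomyolysis library 2. The 78 ribosomal protein genes showed 1 rise and 0 falls, and the summed share did not differ beyond the libraries' spread (exact p = 0.7). Without rhabdomyolysis library 2, 26 of them fell and 2 rose. Of 19 actin cytoskeleton genes 9 rose and 1 fell, with 14 rising without rhabdomyolysis library 2 and 4 or 5 without any 1 of the control libraries or rhabdomyolysis library 1. Actb was 8163, 7504 and 7658 CPM in control members and 17295, 8765 and 19652 CPM in rhabdomyolysis members, where library 2 lay near the controls. Of 28 lysosomal genes 4 rose and 4 fell, with 0 and 1 without control library 2 and 11 falling without rhabdomyolysis library 2. Of 26 tested type I interferon response genes 3 fell and 0 rose, and 11 fell without rhabdomyolysis library 2.

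The few immediate early transcripts left in the members split in direction. Of 17 tested, 6 rose and 7 fell, and 4 fell without any 1 control library. Fos rose by 2.22 (edgeR adjusted p = 0.00045), from 1.31 to 1.75% of the free RNA level in control to 4.002 to 7.75% in rhabdomyolysis. Ier2 rose by 1.51 and Junb by 0.99 (edgeR adjusted p = 0.00096 and 0.0045). Atf3, a stress-induced factor that restrains cytokine genes, fell from 46.7, 46.6 and 41.5 to 8.47, 4.83 and 8.43, a change of -2.70 ± 0.23 (edgeR adjusted p = 0.00015), and Klf2, a factor that quiets macrophages, from 35.7, 47.3 and 24.4 to 4.91, 11.9 and 8.67 (edgeR adjusted p = 0.0047). Among the myeloid factors 8 of 18 fell and 1 rose, and 3 or 4 fell without any 1 control library or rhabdomyolysis library 1. The 1 that rose was Cebpb, a factor of the inflammatory response, from 97.7, 87.6 and 80.7 to 619, 585 and 423 (edgeR adjusted p = 0.0002).

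Markers of other cells moved with the condition in the members. Of 11 tested tubule genes 9 fell and 0 rose, with Kap, an androgen-regulated protein of proximal tubules, going from 409, 459 and 195 to 32.1, 38.3 and 10.1 and from 321, 464 and 794 to 40.99, 37.2 and 108 in free RNA. T and B cell genes fell, 3 of 3 tested each. Of 5 tested classical monocyte genes 4 rose and 1 fell, with 2 rising without control library 3. The 1 that fell was Ccr2, from 64.9, 88.9 and 53.6 to 9.81, 12.5 and 10.96 (edgeR adjusted p = 0.00027). The list summed to 71.5, 108 and 64.9 CPM in control members and 110.2, 204 and 98.97 in rhabdomyolysis, against 433, 468 and 374 and 2006, 1846 and 1825 in free RNA. Its part in the changes above was not tested. Hemoglobin rested on single barcodes: 5 of 5 tested erythroid genes rose, 1 without control library 2 and 0 without control library 3, and 24 member barcodes with hemoglobin at 1% or more of UMIs held 94.7 to 99.96% of the members' hemoglobin UMIs in the 5 libraries that had any such barcode. Hbb-bs was 562, 3.47 and 49.4 CPM in control members and 6745, 10097 and 1160.2 CPM in rhabdomyolysis members, and without these barcodes its mean was 2.83 and 9.54 CPM. The hemoglobin genes then had too few counts to be tested.

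The change itself was compared between members and Malat1-rich macrophages by the class and condition interaction, with the library as a block. Of 10592 genes, 96 (0.906%) had a more positive change in the members and 377 (3.56%) a more negative one, with a median difference of -0.10 over all genes. Without trimmed mean scaling the split was 219 and 268 and the median 0.11, so the sign of a difference of this size depends on the scaling. The number called was 1677 without rhabdomyolysis library 2 and 106, 133, 169 and 257 without control library 2, control library 3, control library 1 and rhabdomyolysis library 1.

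Atf3 had opposite changes. It went from 167, 189.6 and 206 to 464, 259 and 359 CPM in Malat1-rich macrophages, a change of 1.08, and fell by 2.69 in the members, a difference of -3.74 ± 0.19 (edgeR adjusted p = 4.8e-10). In free RNA it went from 125, 112 and 97.2 to 337, 158 and 205. The members were thus at 37.4 to 42.7% of free RNA in control and 2.52 to 4.11% in rhabdomyolysis. Il1b rose by 1.41 in Malat1-rich macrophages, from 369, 407 and 524 to 1486, 546 and 1118, with a difference of -2.05 ± 0.18 (edgeR adjusted p = 2.7e-06). Both differences kept their call under each alternative tried, including those without any 1 library.

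Other genes rose in Malat1-rich macrophages by more than in the members. Vim, an intermediate filament protein, was 180.5, 198 and 169 and 774, 524 and 1293 in Malat1-rich macrophages against 101, 124 and 117 and 139.6, 137 and 212 in the members, a difference of -1.87 ± 0.22. Nfkbia, the inhibitor of NF-kB, was 201, 231 and 225 and 1716, 1243 and 1032 against 98.4, 79.9 and 87.9 and 149, 240.0 and 117, a difference of -1.90 ± 0.27 (edgeR adjusted p = 8.0e-05 and 0.0005). Ccl6 rose by 0.27 in Malat1-rich macrophages without passing (edgeR adjusted p = 0.43) and fell in the members, a difference of -1.40 ± 0.21 (edgeR adjusted p = 0.00075). H2-Eb1 fell in both, from 18763, 18797 and 19803 to 1714, 3110.3 and 1804 in Malat1-rich macrophages, and by more in the members, with a difference of -1.40 ± 0.19 (edgeR adjusted p = 0.00036). H2-Aa (-1.16) and H2-Ab1 (-1.15) differed the same way. Spp1 rose by 6.23 in Malat1-rich macrophages, a difference of -2.29 (edgeR adjusted p = 0.0042) whose call was lost without control library 2.

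In Malat1-rich macrophages 14 of 25 tested chemokines and cytokines rose and 3 fell, and so did 14 and 3 of 25 immediate early genes. By list, 9 of 24 tested chemokines and cytokines had a more negative change in the members and 0 a more positive one, with 5 without control library 2. For immediate early genes it was 8 of 25 and 1, with 4 without control library 1 or 2, and for MHC class II genes 4 of 15 and 0, with 8 without rhabdomyolysis library 2. The other way, 6 of 21 scavenging genes changed more positively in the members and 0 more negatively, with 2 or 3 without any 1 control library, and 6 were more negative without rhabdomyolysis library 2. Mgl2, a lectin receptor for galactose sugars, was 229, 181 and 191 and 288, 38.9 and 572 in the members and 499, 376 and 396 and 274, 51.8 and 485 in Malat1-rich macrophages, a difference of 0.86 ± 0.15 (edgeR adjusted p = 0.0022). In neither class did its own change pass (edgeR adjusted p = 0.64 and 0.51), and rhabdomyolysis library 2 was the lowest in both. Fos rose by more in the members, with a difference of 1.58 ± 0.25 (edgeR adjusted p = 0.0014), from a level of 1.31 to 1.75% of free RNA in control.

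With both classes limited to 1000 to 2000 UMIs, 56 genes differed in their change in place of 473. Atf3, Il1b, Vim, Nfkbia, H2-Eb1 and Mgl2 remained called, while Ccl6, H2-Aa, Fos and Spp1 did not (highest edgeR adjusted p = 0.64). The Malat1-rich class then holds 98 barcodes in rhabdomyolysis.

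**Figure D5:**
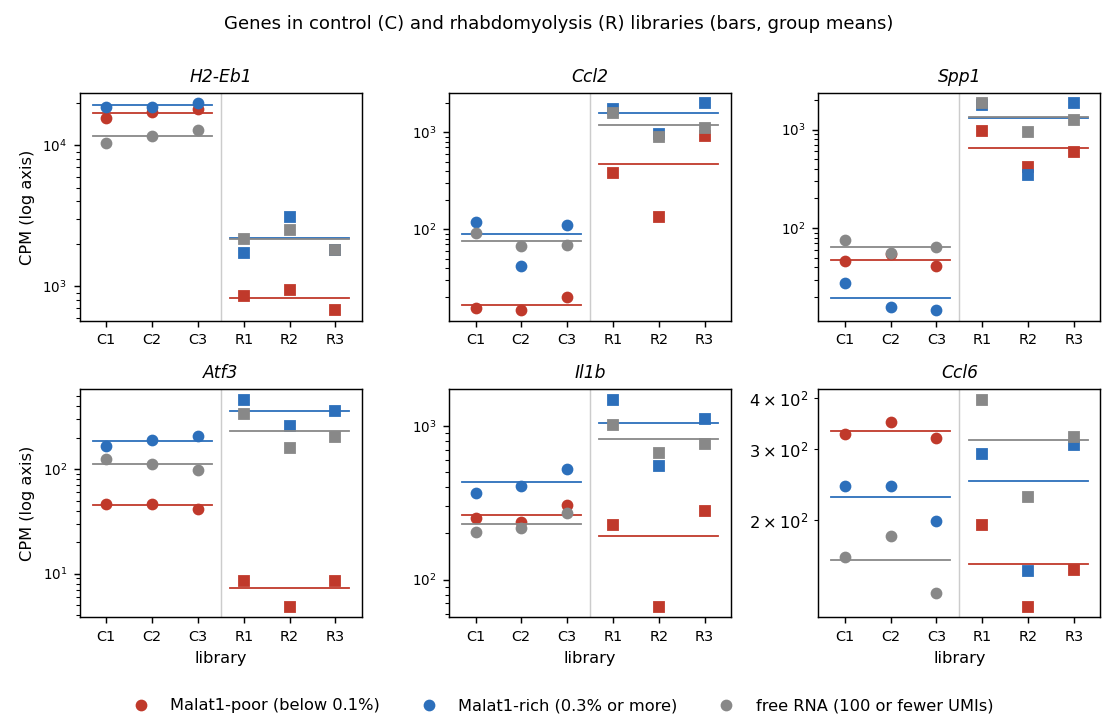
CPM (y axes, log scale, ranges differ between panels) of 6 genes in each library (x axes, C1 to C3 control, R1 to R3 rhabdomyolysis), in Malat1-poor macrophage barcodes, Malat1-rich macrophages and free RNA, with a bar at each group's mean, circles for control and squares for rhabdomyolysis. H2-Eb1 is lower and Ccl2 and Spp1 higher in rhabdomyolysis in all 3 classes, while Atf3 is lower in the members and higher in the other classes.

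The 350 Malat1-poor macrophage barcodes with 2 or more Hmox1 UMIs, just outside the rule, were deeper, with medians of 1667 to 2031 UMIs in control and 2000 to 2733 in rhabdomyolysis. Immediate early genes took up 0.126% of their UMIs in control and 0.113% in rhabdomyolysis, against 0.112% and 0.111% in the members and 1.34% and 1.65% in Malat1-rich macrophages. Ribosomal proteins took up 26.6% and 24.2%, against 32.9% and 30.7% in the members. Classical monocyte genes took up 0.00564% in control, from 10 UMIs, and 0.0590% in rhabdomyolysis, against 0.00772% and 0.0127% in the members. These sums over barcodes of 3 libraries have no replicate test, and Hmox1 divides the classes.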

How the data were processed

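UMI counts of 32285 genes and 6 antibody tags per barcode were deposited by the authors as raw matrices, made with Cell Ranger 4 on mm10 per the submitters' processing notes. Samples were grouped by their labels. The members, lists and tests were chosen with earlier results of these data known. Doublets were not removed (leaving out the deepest 5% of barcodes was an alternative), and no free RNA was subtracted. Of the 6 tags, 5 are reported, with p-values adjusted over 6, and 1 tag and 1 gene are not reported here.

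Counts were summed per library and class. CPM are of all gene UMIs of that sum. Conditions were compared with edgeR 4.0.16 (R 4.3.3; trimmed mean scaling, filterByExpr, quasi-likelihood test, Benjamini-Hochberg over all genes tested), each class in its own fit and the difference of the change in a joint fit with the library as a block. Class descriptions used log2(CPM + 1) and genes with a mean of 20 or more. Exact permutation tests used scipy 1.17.1 (Python 3.11.15, numpy 2.4.6). DESeq2 1.42.0 was an alternative. The edgeR script was tested on simulated counts. Genes were named from the lists, or as the 12 largest changes per direction at an adjusted p under 0.05, average log2 level of 6 or more, no overlap of libraries, and 2 times the free RNA level; against Malat1-rich macrophages, as the 12 lowest median ratios among genes with a mean of 50 or more past 2-fold in all 6 libraries. Genes of the rule were left out. Hmox1 and Malat1 are part of the rule, so class sizes have no test. Replicate numbers were not used to pair libraries.

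Alternatives were other scaling, count filters, Malat1, Hmox1, C1q and depth limits, free RNA limits, a replicate block, and leaving out each library. Leaving out barcodes with hemoglobin at 1% or more of UMIs and scaling tags per 1000 gene UMIs were chosen after seeing the data. The members held 1371269 to 8305585 gene UMIs per library, which set the counting error of their levels.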

Additional observations from a re-analysis of the deposited data

Results flagged for a closer look

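For 10 genes the change from control to rhabdomyolysis differed between Malat1-poor macrophage barcodes and Malat1-rich macrophages by the edgeR interaction test at an adjusted p under 0.05, with no overlap of the within-library ratios of both classes between conditions. Values are differences of log2 changes, members minus Malat1-rich. Among barcodes with 1000 to 2000 UMIs 9 of the 10 lost the call, all other than Mgl2. Atf3, Il1b, Vim, Nfkbia and H2-Eb1, given above, kept the call at that depth. They are not among the 10, as they did not meet all the further limits. Without 1 library at a time, Mgl2, Ccl6 and Litaf kept it. Ccnd1 lost it without any 1 control library or rhabdomyolysis library 1, Clec4a2 without any 1 library other than rhabdomyolysis library 2, Pmepa1 without control library 1 or 3 or rhabdomyolysis library 1, Kxd1 without control library 2 or 3 or rhabdomyolysis library 1, Mapk3 without any 1 control library, Snap23 without control library 2 or 3, and Rhog without control library 2.

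Of the more positive ones, Mgl2 (0.863) and Ccnd1 (0.685), a cyclin of the G1 phase, passed in neither class alone. Mgl2 in the members ranged from 38.9 to 572 CPM over the rhabdomyolysis libraries, and Ccnd1 from 82.7 to 276. Pmepa1 (0.718) rose in both classes, by 1.71 and 0.96.

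Of the more negative ones, Ccl6 (-1.4), Rhog (-0.899), a small GTPase of the cytoskeleton, and Snap23 (-0.695), a membrane fusion protein, fell in the members and did not pass in Malat1-rich macrophages (edgeR adjusted p = 0.43, 0.81 and 0.54). Clec4a2 (-0.883) fell in both, with changes of -1.40 and -0.58. Litaf (-0.959), a lysosomal membrane protein, rose by 0.90 in Malat1-rich macrophages and had 122, 120.2 and 105 CPM in control members and 136, 103 and 102 in rhabdomyolysis members, with overlapping groups. In free RNA Litaf went from 45.3, 50.7 and 59.8 to 133, 109.5 and 100.1. Kxd1 (-0.792), a subunit of a lysosome positioning complex, and Mapk3 (-0.699), the kinase ERK1, passed in neither class alone, and both changed sign among barcodes with 1000 to 2000 UMIs.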

How the results depend on the processing

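Limits come first from the rule, which reads transcript counts, so that a barcode's depth bears on its Malat1, C1q and Hmox1 limits alike. The part of free RNA in the members' transcripts was not tested. Genes called between rhabdomyolysis and control numbered 758 to 3110 in the members without any 1 library, 2511 to 5877 in Malat1-rich macrophages and 106 to 1677 for the difference of the change. Limited to genes at least 2-fold above free RNA, these were 100, 124 and 20. Limited to 1000 to 2000 UMIs, Malat1-rich macrophages had 506 calls and the difference 56. At that depth the differences of Kxd1 (0.0663, edgeR adjusted p = 0.99) and Mapk3 (0.39, edgeR adjusted p = 0.92) changed sign. With any Hmox1 count the difference of the change had 985 calls. The narrower sets hold fewer genes or barcodes, and the cause of the other shifts was not tested. The genes named by the rule for large changes kept direction and call in 507 repeats under an alternative, lost the call in 63 and changed sign in 2. Repeats in which a gene had too few counts to be tested are not counted, such as hemoglobin genes without the hemoglobin barcodes. These genes were chosen by adjusted p and lack of overlap in the same data, which favours keeping the call.

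Against Malat1-rich macrophages, the genes more than 2-fold higher in control were 12 and lower 2517 with a mean of at least 5 CPM, and 5 and 1685 in rhabdomyolysis. At 1000 to 2000 UMIs, 277 genes were higher and 1997 lower in control, and 92 higher and 1118 lower in rhabdomyolysis. With Malat1 below 0.05% or with any Hmox1 count, 5 genes were higher in rhabdomyolysis. Without any 1 library, 8 to 13 were higher and 1148 to 1226 lower in control, and 4 to 7 higher and 641 to 802 lower in rhabdomyolysis. Without thinning, the difference in genes per member was 103.5.

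Antibody tags per 1000 gene UMIs turned sign, with log2 ratios of 1.12 for CD4, 1.002 for CD8a, 0.74 for F4/80, 1.35 for CD3 and 0.85 for P2X7R (exact p = 0.03125 each). By medians per barcode, CD8a (-0.43, adjusted exact p = 0.075) lost the call and CD3 (-0.54, 0.046875) gained it. Without any 1 library no tag can pass, as 5 libraries allow an exact p of 0.0625, and the mean log2 ratios were -0.56 to -0.43 for CD4, -0.70 to -0.53 for CD8a, -0.97 to -0.70 for F4/80, -0.92 to -0.65 for P2X7R and -0.36 to -0.24 for CD3.

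Libraries of the same replicate number correlated in their deviations from the group means at 0.105, 0.053 and 0.103 in the members, so not every pair passed 0.1 and the numbers were not taken as pairs. Each member library correlated best with its own number, a hint from the data and not from the design. With the replicate number as a block, 1891 genes were called in the members and 3991 in Malat1-rich macrophages, and Fth1 lost its call.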

Other observations

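The summed transcripts of dividing cells stood higher in the members than in both other classes, when barcodes of all depths were summed. The 7 listed genes of proliferating cells summed to 212, 275 and 273 CPM in control members, 135, 155 and 86.9 in Malat1-rich macrophages and 111, 110.3 and 116 in free RNA. In rhabdomyolysis they summed to 184, 72.7 and 468, 99.8, 46.2 and 207 and 101, 54.3 and 217. The members were highest in each library, with the lowest sum in rhabdomyolysis library 2 in all 3 classes. Among barcodes with 1000 to 2000 UMIs they ranged from 56.2 to 385% of the Malat1-rich level, so the order did not hold in each library at like depth. Stmn1, which destabilises microtubules, held most of the sum, at 124, 145 and 138 in control members against 59.8, 64.8 and 39.4 in Malat1-rich macrophages. Ube2c, a ubiquitin-conjugating enzyme of mitosis, was 25.5, 43.1 and 47.7 against 12.3, 22.3 and 10.3. Mki67, which encodes the Ki-67 protein of dividing nuclei, was lower in the members of 2 of the 3 control libraries, at 5.10, 4.86 and 7.90 against 16.6, 14.7 and 7.17.

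Heat shock transcripts split between genes. Hspa1a, the inducible form, stood at 0.537 to 1.03% of the Malat1-rich level in control members and 0.602 to 3.65% in rhabdomyolysis members, whereas Hspa8, the form made at all times, stood at 106 to 119.6% and 78.9 to 98.8%.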
